A study of Homo sapiens with 24 samples.

Results

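The response of the p53 Mutant HCT116 line to APR-246 given together with irradiation was measured against solvent, across every gene of the deposited tables. HCT116 is a human colon cancer cell line, and the labels describe 3 forms of it, p53 Mutant, p53 wild type (WT) and p53 null (Null), without naming the substitution or the clones. The combination group holds 2 libraries of Mutant cells that received 20 uM APR-246 and then 6 Gy of irradiation, and the solvent group holds 2 libraries of Mutant cells that received neither. These are 4 of 24 libraries. Both groups grew in McCoy 5A medium with 10% fetal bovine serum and penicillin/streptomycin, and cells were collected 72 hours after irradiation. Of 60675 gene identifiers listed, 20668 passed a filter on low read numbers and were tested, all of them in each comparison below. Mutant cells that received 6 Gy alone or APR-246 alone (2 libraries each) and combination and solvent libraries of WT and Null cells (2 per group) were used for comparison. The labels do not say whether the 2 libraries of a group came from separate cultures, so p-values here reflect variation among these libraries and possibly only technical variation. Each p53 status is represented by 1 line, so effects of p53 status and of the line cannot be told apart.

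APR-246 (eprenetapopt) is a prodrug that releases methylene quinuclidinone, a reactive compound that binds cysteines. It was developed to refold mutant p53, and it also binds glutathione and thioredoxin reductase, which lowers the antioxidant capacity of cells. Ionizing radiation breaks DNA. Wild-type p53 answers such breaks by switching on CDKN1A, which arrests the cell cycle, and MDM2, which degrades p53. Cells under amino acid or protein-folding stress switch on the transcription factor ATF4 (the integrated stress response), and nucleic acids in the cytosol switch on interferon-stimulated genes.

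Each library held 53184139 to 58058729 reads assigned to genes. Of the read numbers from 2 to 9, 74.5% to 81.5% were even in each library, so both mates of a pair may each have been counted, and the libraries may hold fewer fragments than reads. Values below are deposited CPM, read counts relative to library size, divided by a per-library TMM factor ("scaled CPM"), and differences are of log2(scaled CPM + 0.5), which understates the change of weakly expressed genes. Libraries of 1 group also differed from each other: the slope of log2 values on gene GC content was -0.18 and 0.21 (log2 per 10 percentage points of GC) in the combination libraries and -0.65 and 0.23 in the solvent libraries. A second limma model took this slope as a covariate, and its calls are given as "with the GC slope". The slope was estimated from the same values that were then tested, so p-values of that model may be too small. The epithelial markers KRT8, KRT18 and EPCAM were present in all Mutant libraries. KRT8 stood at 2691 and 5245 scaled CPM in the combination and at 1841 and 6224 in solvent. EPCAM stood at 101 and 101 scaled CPM in the combination and at 119 and 88.6 in solvent. Some other epithelial markers were lower. ESRP1 stood at 56.1 and 42.4 in the combination, against 217 and 157 in solvent, and CLDN7 at 52.8 and 72.9, against 106 and 199. For CDH1 the values were 30.2 and 22.3, against 59.2 and 47.5. Of 15 epithelial markers tested, 0 were called in the first model, and 5 were lower and 0 higher with the GC slope. Over all genes tested the GC slope shares were 8.81% lower and 7.69% higher. CDX1, VIL1, CDH17, LGALS4 and GPA33, markers of differentiated intestine, stayed under 1 scaled CPM in these 4 libraries. In bulk RNA, fewer cells of a type and less RNA per cell cannot be told apart.

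Promoter sequences of 6 genes that the results turn on are shown here because each carries a short motif of the factor that names its group: CHAC1 and ASNS for the ATF4 element TGATGNAA, PCNA and CDC25A for the E2F forms TTTCCCGC and TTTGGCGC, IFIT1 for the interferon-stimulated response element (GAAA and GAAAC with 2 free bases between them), and CCN2 for the TEAD element GGAATG. Each window lies within the 250 bases before the start that RefSeq gives the gene, read from RefSeq promoters (build GRCh38.p14) on the strand of the gene, with matches on either strand in capitals. GENCODE 29, the source of the gene coordinates below, starts CHAC1, ASNS and IFIT1 further upstream, so the windows of these 3 were kept to 30 bases and the others are 90 bases long; those of CHAC1 and ASNS lie inside the gene as GENCODE gives it.
CHAC1: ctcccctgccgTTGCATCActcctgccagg
ASNS: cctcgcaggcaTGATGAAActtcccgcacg
PCNA: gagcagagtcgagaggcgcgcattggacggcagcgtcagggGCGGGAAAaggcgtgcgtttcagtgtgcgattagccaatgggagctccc
CDC25A: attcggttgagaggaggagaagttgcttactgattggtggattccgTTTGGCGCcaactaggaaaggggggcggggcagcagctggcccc
IFIT1: gctagctttaGTTTCACTTTCccctttcgg
CCN2: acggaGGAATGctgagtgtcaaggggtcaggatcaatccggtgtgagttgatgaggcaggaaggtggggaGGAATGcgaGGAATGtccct

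The CHAC1 window lies at chr15:40953251-40953280 (plus strand), the ASNS window at chr7:97872458-97872487 (minus), the PCNA window at chr20:5126633-5126722 (minus), the CDC25A window at chr3:48188418-48188507 (minus), the IFIT1 window at chr10:89392496-89392525 (plus) and the CCN2 window at chr6:131951457-131951546 (minus). Among 35116 promoters of the same table, the 250 bases before the start held TGATGNAA in 3.14%, TTTCCCGC in 1.39%, TTTGGCGC in 0.55%, the interferon element in 0.644% and GGAATG in 11.9%. Of the members looked up, DDIT4, SLC7A1, NIBAN1 and GARS1 of the ATF4 list held no TGATGNAA in that stretch, PRIM2 held neither E2F form, and CMPK2 did not hold the interferon element. A match is a string of letters and not a measured binding site.

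In Mutant cells the combination raised 54 genes and lowered 18 relative to solvent (limma with Benjamini-Hochberg adjustment over 20668 genes, called at an adjusted p of 0.05; 0.261% of genes tested higher, 0.0871% lower, 0.348% in all). Across all genes tested, 2439 had an unadjusted p under 0.05. The genes that rose included replication factors (PCNA, MCM4), the cell-cycle phosphatase CDC25A, interferon-stimulated IFIT1, and secreted or membrane proteins (THBS1, CCN2, CD14, APLN). Those that fell included the stress gene DDIT4, the calcium-binding protein S100A14 and host transcripts of small nucleolar RNAs. Without TMM scaling the counts were 145 higher and 18 lower, so the share of higher calls was 89.0% in place of 75%. With the replicate number as a block, whose meaning the labels do not give, they were 790 and 729, a share of 52.0%. With 1 library left out, which leaves its group with 1, 4 of the 72 calls remained without combination library 1 (EFNA5, C1QTNF2, SGK1 and CCN3, named after their values were seen) and 0 remained without combination library 2, solvent library 1 or solvent library 2, while the direction of all 72 was kept each time. The fit with the GC slope called 1590 higher and 1821 lower genes (7.69% and 8.81%, 16.5% in all), all 72 among them, so 46.6% of its calls were higher. In that fit 70 of the 72 remained called without combination library 1 or 2, 71 without solvent library 1 and 47 without solvent library 2, and 367 genes were called in all without solvent library 2.

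SGK1, a kinase induced by glucocorticoids and cell stress (chromosome 6, 134169246 to 134318112), had the largest rise among the called genes. It stood at 7.19 and 6.68 scaled CPM in the combination libraries, against 1.10 and 1.32 in the solvent libraries (log2 2.12 ± 0.25 SE, limma adjusted p = 0.00404). Cells given irradiation alone had 6.83 and 7.04 scaled CPM and cells given APR-246 alone 2.66 and 3.78, so every treated library lay above both solvent libraries. CA2, carbonic anhydrase II (chromosome 8, 85463852 to 85481493), reached 24.8 and 24.4 scaled CPM in the combination, against 6.22 and 4.78 in solvent (2.08 ± 0.27, adjusted p = 0.00761). It is a gene of differentiated colonocytes and the only 1 of 19 tested members of the intestinal differentiation list to be called, in a list whose median was 0.19.

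THBS1, which encodes the matrix protein thrombospondin-1 (chromosome 15, 39581079 to 39599466), stood at 11.4 and 9.30 scaled CPM in the combination, against 2.87 and 2.28 in solvent (1.82 ± 0.33, limma adjusted p = 0.0341). CCN2, a secreted matricellular protein and a target of the YAP and TEAD factors (chromosome 6, 131948176 to 131951373), stood at 10.8 and 12.5 in the combination, against 3.29 and 4.01 in solvent (1.55 ± 0.27, adjusted p = 0.0331). It was the only called member of 16 in the YAP and TEAD list, whose median was -0.038, and 0.21 without solvent library 1. The list's other members with the smallest p were not called: CCN1 at 1.07 (adjusted p = 0.109), AXL at -1.39 (0.137) and NT5E at -1.15 (0.371).

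Further rises were smaller in level. APLN, the ligand apelin, stood at 3.57 and 4.12 scaled CPM in the combination, against 0.277 and 1.15 in solvent, and KRTAP2-3, a hair keratin-associated protein whose reads could be shared with near-identical neighbours, at 2.84 and 2.56 against 0.222 and 0.597. CD14, a co-receptor for bacterial lipopolysaccharide, stood at 2.18 and 2.13 scaled CPM in the combination, against 0.111 and 0.427 in solvent (1.82 ± 0.30, limma adjusted p = 0.0331). CD14 is also a blood cell marker. The other 11 blood cell markers summed to 0.825 and 1.504 scaled CPM in the combination and to 0.347 and 0.277 in solvent (0.99 and 0.776 under irradiation, 0.378 and 2.26 under APR-246), and whether blood cells had a part in the CD14 result was not tested. PTPRC, the marker of all white blood cells, stayed at 0.0295 and 0.0391 in the combination and was at 0 in solvent, and MS4A1 was at 0 throughout.

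KCNS3, a modifier subunit of potassium channels, rose by 1.80 ± 0.31 (limma adjusted p = 0.0331), MYB, a transcription factor of progenitor cells, by 1.80 ± 0.30 (0.0331), ADRB1, the beta-1 adrenergic receptor, by 1.79 ± 0.32 (0.0336), and H2BC11, a replication-dependent histone gene, by 1.71 ± 0.31 (0.0341). MYB reached 1.78 and 1.82 scaled CPM in the combination, against 0.778 and 0.911 under irradiation, 0.817 and 1.14 under APR-246, and 0.250 and 0.0853 in solvent. For MYB the combination libraries lay above those of both single treatments. The differences, 0.64 from APR-246 and 0.78 from irradiation, were not called by limma with or without the GC slope. Its departure from the sum of both log2 effects was -0.38, also not called.

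DDIT4 (REDD1), an ATF4 target that restrains the growth kinase complex mTORC1 (chromosome 10, 72273920 to 72276036), had the largest fall among the called genes. It stood at 35.8 and 30.8 scaled CPM in the combination libraries, against 205 and 253 in the solvent libraries (-2.76 ± 0.51, limma adjusted p = 0.0341), 6.78-fold lower on the scale used. Irradiation alone gave 44.1 and 38.5 scaled CPM and APR-246 alone 36.4 and 25.1, so all 3 treatments left it far under solvent. THSD4, which encodes a protein of microfibrils, stood at 25.6 and 12.8 in the combination, against 129 and 121 in solvent (-2.75 ± 0.55, adjusted p = 0.0465).

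S100A14, an epithelial calcium-binding protein (chromosome 1, 153614255 to 153616986), stood at 15.4 and 13.5 scaled CPM in the combination, against 65.0 and 108 in solvent (-2.50 ± 0.39, limma adjusted p = 0.0286). H6PD, which makes NADPH inside the endoplasmic reticulum, stood at 35.0 and 27.7 in the combination, against 100 and 127 in solvent (-1.84 ± 0.32, adjusted p = 0.0331). Under irradiation alone H6PD had 49.3 and 42.1 scaled CPM and under APR-246 alone 75.3 and 50.2. Both combination libraries were thus the lowest of the 8 Mutant libraries. Between the combination and either single treatment the main limma test did not call H6PD.

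The other falls among the 12 largest at 1 scaled CPM or more were, beside 2 described with the small nucleolar RNA hosts below, of AKNA, an AT-hook protein (-2.08 ± 0.41), MOCOS, which activates molybdenum enzymes (-1.63 ± 0.32), LMO4, a transcriptional adaptor (-1.51 ± 0.28), KCTD15 (-1.49 ± 0.28), the pseudogene RPLP0P2 (-2.06 ± 0.41), whose reads could be shared with its parent gene, and the non-coding RNA SLC38A4-AS1 (-1.48 ± 0.30), with limma adjusted p between 0.0352 and 0.0465. The 6 further called falls ran from -1.40 to -1.03. The plot of leading genes shows the 4 treatments side by side.

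**Figure D1:**
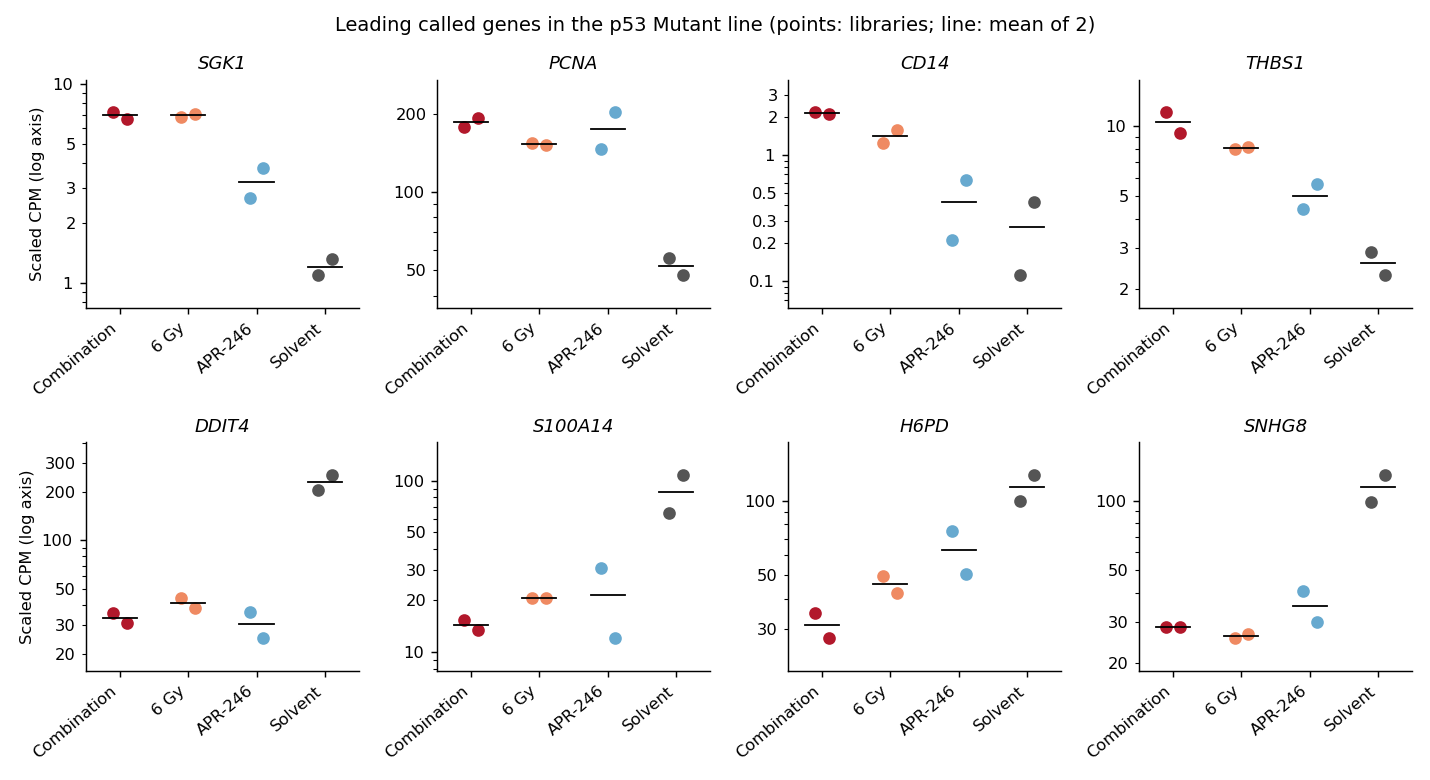
Scaled CPM on a log axis in the 8 p53 Mutant libraries for 4 genes that rose (top) and 4 that fell (bottom) in the combination against solvent; points are libraries and lines the mean of 2. SGK1 stood at 7.19 and 6.68 in the combination and at 1.10 and 1.32 in solvent, and DDIT4 at 35.8 and 30.8 against 205 and 253.

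Genes of the integrated stress response lay lower as a group. Of 44 tested members of the ATF4 list, 1 fell by the limma test (DDIT4) and 0 rose, while the 2 combination libraries lay under both solvent libraries for 40 members and above for 0 (16.0% of all genes tested lay under and 18.4% above in that way). The median log2 difference was -1.45, against -0.0035 over all genes tested. Relative to the solvent mean, the list's median was -1.5 and -1.39 in the combination libraries, -1.44 and -1.52 under irradiation, -0.94 and -1.32 under APR-246, and -0.32 and 0.32 in the solvent libraries themselves. All 6 treated libraries lay under both solvent libraries. Over all genes tested, the GC slope fit on all libraries called 7.69% higher and 8.81% lower, the background for list counts of that fit here and below. These shares are not the background for list counts of fits that left out a library. Such fits called fewer genes in all, so their background is lower. The GC slope fit gave 34 lower and 0 higher members, and without solvent library 2 that count was 3.

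Among its members, SLC7A1, a transporter of cationic amino acids, stood at 119 and 115 scaled CPM in the combination, against 349 and 413 in solvent (-1.69 ± 0.36, limma adjusted p = 0.0565). NIBAN1, a stress-induced protein, stood at 10.9 and 7.34, against 94.2 and 71.6 (-3.12 ± 0.69, adjusted p = 0.0603), and GARS1, the glycyl-tRNA synthetase, at 121 and 134, against 304 and 364 (-1.38 ± 0.33, adjusted p = 0.0746). None of the 3 passed the main test, and all 3 passed with the GC slope.

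The genes tied to cystine and glutathione were more spread between libraries. SLC7A11, which imports cystine for glutathione synthesis, stood at 15.9 and 9.16 scaled CPM in the combination, against 137 and 43.5 in solvent (-2.63 ± 0.95, limma adjusted p = 0.249). CHAC1, which degrades glutathione and carries the ATF4 element shown above, stood at 21.7 and 29.2, against 78.6 and 172 (-2.18 ± 0.79, adjusted p = 0.252). ASNS, asparagine synthetase, which carries it too, stood at 1.65 and 0.957, against 8.12 and 7.96 (-2.27 ± 0.66, adjusted p = 0.141). The groups did not overlap for any of the 3, and none was called; with the GC slope SLC7A11 passed (adjusted p = 0.0401), CHAC1 and ASNS did not (0.0736 and 0.0526).

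Chaperones of the endoplasmic reticulum, which the unfolded protein response controls, had a median of -0.36. Of 21 tested, 0 were called in either direction, 9 lay without overlap lower and 0 higher, and 9 were lower and 0 higher with the GC slope (2 lower without solvent library 2). Among all genes tested, 16.0% lay lower and 18.4% higher without overlap. The list's median was -0.15 without solvent library 1. HSPA5 (BiP), the main chaperone of that compartment, stood at 896 and 678 scaled CPM in the combination, against 2859 and 2561 in solvent (-1.79 ± 0.54, limma adjusted p = 0.149). Values for DNAJB9, HYOU1 and HERPUD1, also folding or degradation factors of that compartment, were -1.87, -1.25 and -1.02, with adjusted p of 0.137, 0.146 and 0.133.

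Host transcripts of small nucleolar RNAs, spliced RNAs that many cells degrade during translation, had a median of -0.66 over 22 tested (-0.38 without solvent library 2). EPB41L4A-AS1 and SNHG8 fell, none rose, and 13 members lay lower without overlap, against 5 higher. Among all genes tested, 16.0% lay lower and 18.4% higher in that way. SNHG8 stood at 28.4 and 28.6 scaled CPM in the combination, against 99.0 and 129 in solvent (-1.97 ± 0.36, limma adjusted p = 0.0341), and EPB41L4A-AS1 at 13.1 and 11.1, against 48.0 and 67.9 (-2.20 ± 0.40, adjusted p = 0.0341). EPB41L4A-AS1 is antisense to another gene, and the strand used in counting is not given in the sources used here, so its reads are uncertain. SNHG5 and SNHG32 stood at -1.20 and -1.36 (adjusted p = 0.0821 and 0.132).

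DNA replication genes lay higher. PCNA and MCM4 rose and 0 fell among 42 tested members of the list, and the median log2 difference was 1.18. Without overlap, 37 members lay above solvent and 0 below, beside 18.4% above and 16.0% below of all genes tested. Per library the list's median relative to the solvent mean was 1.00 and 1.18 in the combination, 0.96 and 1.00 under irradiation, 0.83 and 1.40 under APR-246, and -0.039 and 0.039 in solvent. In the GC slope fit 39 were higher and 0 lower, and 7 were higher without solvent library 2.

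PCNA, the sliding clamp of the replication fork (chromosome 20, 5114953 to 5126626), stood at 177 and 193 scaled CPM in the combination libraries, against 55.8 and 47.9 in the solvent libraries (1.83 ± 0.34, limma adjusted p = 0.0341). MCM4, a subunit of the replicative helicase, stood at 169 and 190, against 55.8 and 46.5 (1.81 ± 0.36, adjusted p = 0.0456). TYMS, which makes thymidylate, and PRIM2, a primase subunit, were not called, at 1.57 ± 0.34 (adjusted p = 0.0588) and 1.30 ± 0.28 (0.0565), although their combination libraries (29.8 and 38.3 scaled CPM, and 23.3 and 25.8) lay above solvent (9.43 and 13.02, and 10.95 and 8.45). The E2F motif TTTCCCGC shown above in PCNA was also found in the 250 bases before TYMS, and not before PRIM2.

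Genes that carry cells from G1 into S had a median of 0.66 over 26 tested, with CDC25A and MYB called higher and 0 lower. CDC25A, which removes inhibitory phosphates from CDK2, stood at 29.1 and 26.7 scaled CPM in the combination, against 9.80 and 8.32 in solvent (1.57 ± 0.30, limma adjusted p = 0.0352). CDKN2C, an inhibitor of CDK4 and CDK6, stood at 16.6 and 24.3, against 2.77 and 4.18 (2.40 ± 0.54, adjusted p = 0.0641), and CDK2 at 48.9 and 58.7, against 24.6 and 27.0 (1.04 ± 0.24, adjusted p = 0.0723). Activators and an inhibitor of the same step were thus both higher in level.

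Genes of mitosis had a smaller median. The G2/M list had a median of 0.39 over 51 tested with 0 called, and 18 members were higher and 1 lower with the GC slope (0 higher and 1 lower without solvent library 2, where the median was 0.24). KIF20A, a mitotic kinesin, stood at 86.1 and 94.4 scaled CPM in the combination, against 34.8 and 47.7 in solvent (1.14 ± 0.37, limma adjusted p = 0.181). NCAPH, MAD2L1 and CCNA2 stood at 1.01, 1.02 and 0.85 (adjusted p = 0.125, 0.174 and 0.181).

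Homologous recombination and Fanconi genes, which repair double-strand breaks and crosslinks, had a median of 0.49 over 40 tested with 0 called. With the GC slope 20 were higher and 2 lower (4 and 0 without solvent library 2). FANCA, a core subunit of the Fanconi complex, stood at 79.1 and 90.1 scaled CPM in the combination, against 30.8 and 35.95 in solvent (1.33 ± 0.28, limma adjusted p = 0.0565). EXO1, which resects broken ends, and RAD54L, which helps to pair them, stood at 1.24 and 1.06 (adjusted p = 0.0934 and 0.131). The list's median was 0.20 without combination library 1 and -0.055 without solvent library 2, so its direction rested on that library of solvent.

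Heat shock chaperones had a median of 0.92 over 24 tested with 0 called, 15 members above solvent without overlap and 0 below. The shares over all genes tested were 18.4% above and 16.0% below. HSPB8, a small heat shock protein, stood at 6.25 and 7.30 scaled CPM in the combination, against 1.47 and 2.13 in solvent (1.67 ± 0.37, limma adjusted p = 0.0588). HSPA1B, an inducible HSP70 gene, stood at 84.4 and 118, against 24.95 and 27.4 (1.91 ± 0.43, adjusted p = 0.0616). HSPA1A, its near-identical neighbour with which reads could be shared, stood at 1.64 (adjusted p = 0.102), and HSPE1, a mitochondrial chaperonin, at 1.51 (0.105). With the GC slope 16 were higher and 0 lower, and 3 were higher without solvent library 2.

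Cholesterol synthesis and uptake genes, which SREBP2 controls, had a median of 0.67 over 25 tested with 0 called, and 9 higher and 0 lower with the GC slope (1 higher without solvent library 2). ACAT2 stood at 15.0 and 22.1 scaled CPM in the combination, against 4.75 and 6.64 in solvent (1.61 ± 0.48, limma adjusted p = 0.15). INSIG1, which holds SREBP in the endoplasmic reticulum, stood at 41.7 and 39.6, against 14.1 and 16.7 (1.38 ± 0.42, adjusted p = 0.155).

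**Figure D2:**
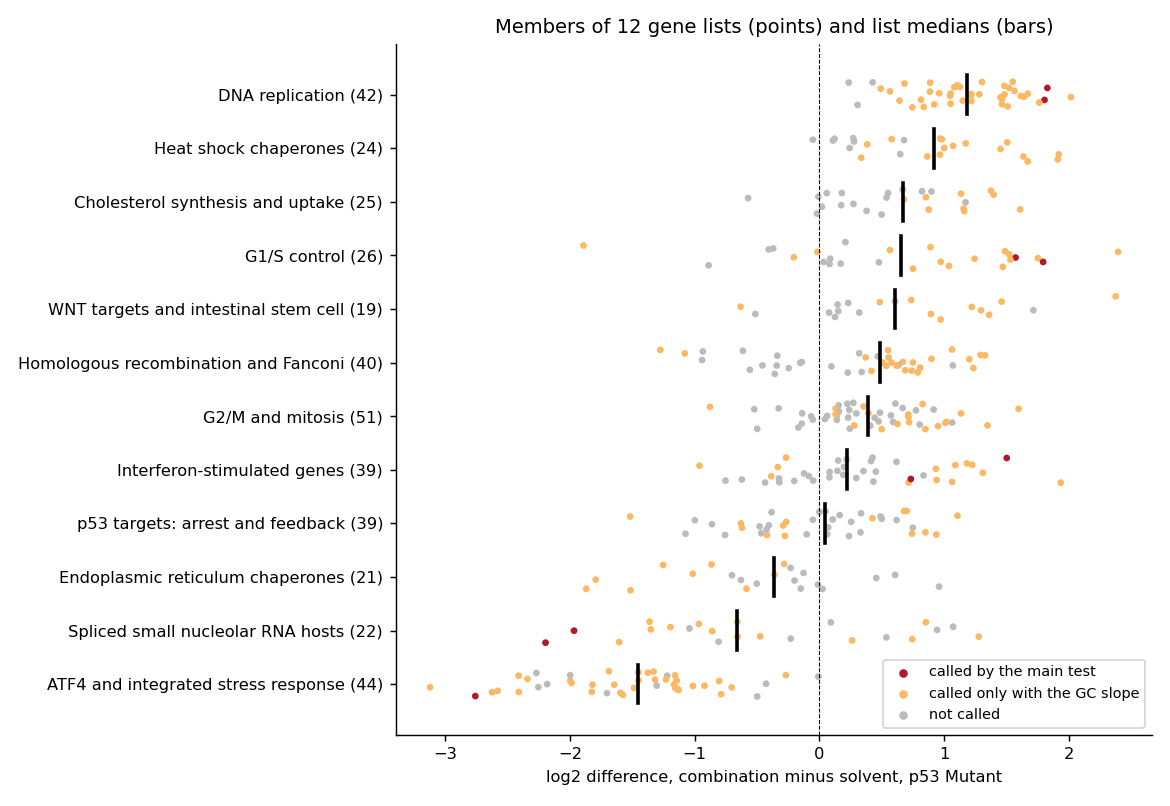
Log2 difference between combination and solvent in p53 Mutant cells for the tested members of 12 gene lists (points, with the number tested in brackets) and the median of each list (bars); red members were called by the main limma test and orange members only with the GC slope. Medians run between -1.45 for the ATF4 list and 1.18 for DNA replication.

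**Figure D3:**
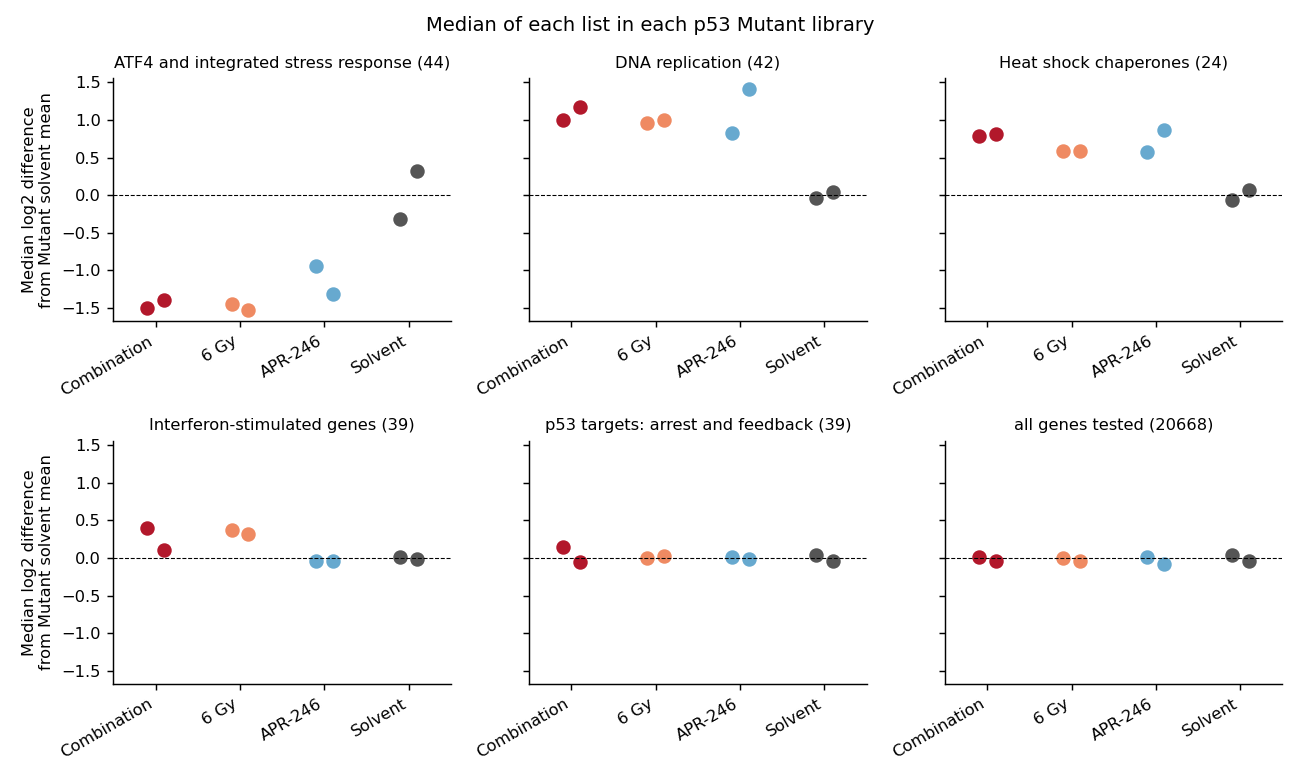
Median over the members of 5 gene lists and over all 20668 genes tested of the log2 difference from the mean of the 2 Mutant solvent libraries, for each of the 8 Mutant libraries. The ATF4 list lay at -1.5 and -1.39 in the combination libraries and the DNA replication list at 1.00 and 1.18, near the values under either treatment alone.

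Signalling targets gave single calls. ID2, a BMP-induced inhibitor of differentiation factors, stood at 27.3 and 24.4 scaled CPM in the combination, against 9.63 and 6.66 in solvent (1.63 ± 0.29, limma adjusted p = 0.0331), and was the only called member of 20 in the BMP and TGF-beta list (median 0.32, and 0.10 without solvent library 1 and 0.54 without solvent library 2). BMP4, a ligand of that pathway, stood at 48.6 and 61.7, against 14.4 and 14.9 (1.87 ± 0.40, adjusted p = 0.0565), and its inhibitor SMAD7 at 6.48 and 5.31, against 1.36 and 2.01 (1.56 ± 0.41, adjusted p = 0.108). WNT targets had a median of 0.61 over 19 tested with 0 called, and 9 higher and 1 lower with the GC slope. AXIN2, a feedback inhibitor of WNT signalling, stood at 5.11 and 4.14, against 1.40 and 0.768 (1.72 ± 0.57, adjusted p = 0.203), and the transcription factors TCF7 and SOX4 at 1.46 and 1.22 (adjusted p = 0.227 and 0.119).

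ERK feedback genes and EGF ligands had a median of -0.37 over 28 tested with 0 called, and members lay on both sides of 0. ETV5 and PHLDA1, outputs of sustained ERK signalling, stood at -0.95 and -1.12 (limma adjusted p = 0.125 and 0.127). FOS and EGR1, early-response factors, stood at 0.93 and 0.87 (0.125 and 0.258). With the GC slope 2 members were higher, FOS and EGR1, and 6 lower (1 and 0 without solvent library 2, where the median was -0.21).

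Antioxidant genes that NRF2 controls gave no calls in the main limma test. The list of NRF2, thioredoxin and glutathione genes had a median of 0.097 over 33 tested with 0 called, and 5 higher and 5 lower with the GC slope (0 and 0 without solvent library 2). Among all genes tested, 7.69% were higher and 8.81% lower with the GC slope. The list's median was -0.040 without solvent library 1. GCLM, a subunit of the enzyme that limits glutathione synthesis, stood at 32.4 and 28.9 scaled CPM in the combination, against 36.7 and 27.5 in solvent (-0.052 ± 0.24, limma adjusted p = 0.957). HMOX1, heme oxygenase, stood at 62.8 and 109, against 27.8 and 85.0 (0.76 ± 0.62, adjusted p = 0.701). ABCC3, an exporter of conjugates, stood at 40.2 and 41.9, against 147 and 167 (-1.92 ± 0.45, adjusted p = 0.0742), and PRDX1, a peroxidase, at 376 and 456, against 184 and 198 (1.12 ± 0.35, adjusted p = 0.172).

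Interferon-stimulated genes were raised for 2 members. IFIT1, which binds foreign RNA and carries the interferon element shown above (chromosome 10, 89392546 to 89406486), stood at 17.0 and 18.0 scaled CPM in the combination libraries, against 6.22 and 5.50 in the solvent libraries (1.5 ± 0.25, limma adjusted p = 0.0331). OAS2, a sensor of double-stranded RNA, reached 0.442 and 0.234 scaled CPM in the combination and was listed at 0 in solvent (0.73 ± 0.14, adjusted p = 0.0377), a low level in any case. OASL stood at 20.6 and 35.5, against 4.31 and 10.2 (1.94 ± 0.51, adjusted p = 0.108), and CMPK2 at 2.20 and 2.52, against 0.873 and 0.853 (1.07 ± 0.30, adjusted p = 0.136). Of 39 tested the median was 0.22, with 15 members higher and 4 lower without overlap and 11 higher and 4 lower with the GC slope (4 and 0 without solvent library 2). Among all genes tested, 18.4% lay higher and 16.0% lower without overlap, and 7.69% were higher and 8.81% lower with the GC slope. The list's median was 0.098 without combination library 1 and 0.47 without solvent library 1.

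The comparisons with each single treatment share the combination libraries with the comparison above, so they are not independent of it. The comparison with APR-246 alone asks what irradiation added to the drug. The main limma test called 0 genes (0% of those tested; 708 had an unadjusted p under 0.05), and edgeR's quasi-likelihood test also called 0, while DESeq2 called 7. Taking the GC slope into account, 67 were higher and 9 lower (0.324% and 0.0435%). Of 39 interferon-stimulated genes 7 were among the higher and 0 among the lower, namely OASL, IFIT1, ISG15, IFI6, EPSTI1, RIGI and IRF7. With 1 of the 4 libraries left out, 5 to 16 genes were called with the GC slope (6 without either combination library, 5 and 16 without APR-246 library 1 and 2). Only WNT7A, OASL and ARC were called in all 4 such fits. The genes in this paragraph and the next other than IFIT1, OASL, CCN2, CCN1, EGR1 and FOS were named after their values were seen.

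OASL, an interferon-stimulated relative of the OAS enzymes, stood at 20.6 and 35.5 scaled CPM in the combination, against 5.51 and 12.04 under APR-246 alone (1.66 ± 0.17 with the GC slope, limma adjusted p = 4.06e-05). WNT7A, a WNT ligand, stood at 2.96 and 4.88 in the combination, against 0.484 and 1.05 under APR-246 (1.80 ± 0.20, adjusted p = 6.04e-05). For both, irradiation alone gave levels near the combination, 27.8 and 36.8 for OASL and 4.81 and 4.65 for WNT7A. ISG15, a ubiquitin-like protein, stood at 186 and 287 in the combination, against 81.0 and 175 under APR-246 (0.94 ± 0.14, adjusted p = 0.00269), and IFI6 at 102 and 93.7, against 43.9 and 58.2 (0.94 ± 0.19, adjusted p = 0.0391). CCN2 stood at 10.8 and 12.5 in the combination, against 4.74 and 4.44 under APR-246 (1.25 ± 0.21, adjusted p = 0.00698). EGR1 stood at 377 and 285, against 151 and 148 (1.13 ± 0.20, adjusted p = 0.0203). The histone genes H2BC12, H2BC5, H2AC6 and H1-2 were also among the 67, with differences of 1.15, 1.02, 1.01 and 1.05; histone gene copies are alike, so their reads could be shared.

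**Figure D4:**
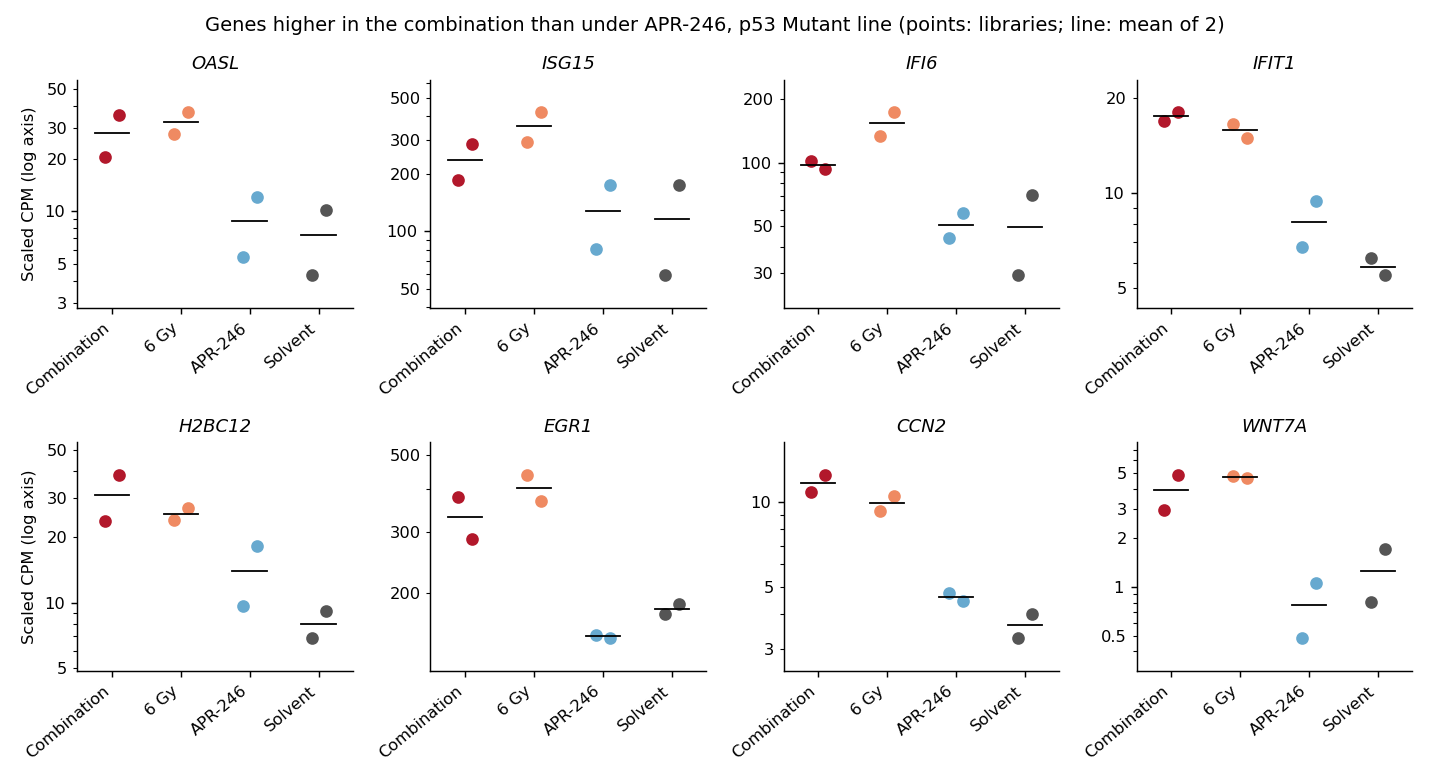
Scaled CPM on a log axis in the 8 p53 Mutant libraries for 8 genes called higher in the combination than under APR-246 alone by limma with the GC slope; points are libraries and lines the mean of 2. OASL stood at 20.6 and 35.5 in the combination, at 27.8 and 36.8 under 6 Gy and at 5.51 and 12.04 under APR-246.

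Each treatment alone was also set against the same solvent libraries. APR-246 alone gave 0 calls (0%) and irradiation alone 14 higher and 2 lower (0.0677% and 0.00968%, 0.0774% in all). With the GC slope APR-246 alone gave 684 higher and 708 lower (3.31% and 3.43%, 6.74% in all) and irradiation alone 1181 higher and 1607 lower (5.71% and 7.78%, 13.5% in all). The comparison with irradiation alone asks what APR-246 added. Here 0 genes were called by limma (405 had an unadjusted p under 0.05), by limma with the GC slope, by edgeR and by DESeq2. List medians between these groups were -0.095 for the ATF4 genes, 0.22 for DNA replication, -0.15 for interferon-stimulated genes and -0.052 for the p53 arrest genes, beside 0.020 over all genes tested. At a median standard error of 0.32 for a difference between 2 groups, single genes could differ by well over that size without being called. MYB, at 0.78 ± 0.30 between the combination and irradiation, was not called. The 0 calls therefore do not exclude differences of that size in single genes.

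The departure from additivity (combination minus APR-246 minus irradiation plus solvent, on the log2 scale) gave 0 calls with limma (766 with an unadjusted p under 0.05), with the GC slope, with edgeR and with DESeq2. Its median standard error was 0.45, larger than that of a simple difference. The 0 calls therefore do not exclude departures of that size. SGK1, CA2, APLN, KRTAP2-3 and PCNA, the called genes with the largest rises, stood at -1.11, -1.27, -1.17, -0.96 and -1.46. They were picked on solvent libraries that also enter the departure. Against solvent, the DNA replication median was 1.17 under APR-246, 0.98 under irradiation and 1.18 in the combination. For the ATF4 list these were -1.13, -1.42 and -1.45, and for interferon-stimulated genes -0.046, 0.30 and 0.22.

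The p53 targets were compared between lines, since the combination was set up in cells with and without p53 function. Among all genes tested in Mutant cells, 7.69% were higher and 8.81% lower with the GC slope. In Mutant cells 0 of 39 arrest and feedback targets were called, 7 were higher and 7 lower with the GC slope (1 and 0 without solvent library 2), and the median was 0.049 (-0.051 without combination library 1). In WT cells 14 of the 39 were higher and 0 lower after the combination, with a median of 0.96 (1.30% of genes tested were higher and 0.929% lower in WT, 2.23% in all). In Null cells 1 was higher and 0 lower, with a median of -0.20 (1.07% of genes tested were higher and 0.876% lower in Null, 1.95% in all).

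CDKN1A, the p21 inhibitor (chromosome 6, 36676460 to 36687339), stood at 124 and 142 scaled CPM in the Mutant combination libraries, against 141 and 296 in Mutant solvent (-0.62 ± 0.40, limma adjusted p = 0.591). In WT cells it stood at 1686 and 1729 in the combination, against 421 and 750 in solvent (1.60, adjusted p = 0.0457). The difference between the lines' responses was -2.22 ± 0.56 (adjusted p = 0.451), and -2.59 ± 0.23 with the GC slope (adjusted p = 1.45e-06).

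MDM2 stood at 28.5 and 13.8 scaled CPM in the Mutant combination libraries, against 32.6 and 12.9 in Mutant solvent (-0.053 ± 0.58, limma adjusted p = 0.981), and at 133 and 155 in the WT combination libraries, against 41.0 and 19.9 in WT solvent (2.31, adjusted p = 0.05001, just short of a call). The difference between the responses was -2.36 ± 0.82 (adjusted p = 0.936), and -1.69 ± 0.24 with the GC slope (adjusted p = 0.0005). PLK2, a kinase induced by p53, stood at 55.8 and 49.4 in the Mutant combination, against 30.04 and 19.3 in Mutant solvent (1.11 ± 0.33, adjusted p = 0.146). BTG1, an antiproliferative gene, stood at 28.8 and 27.8, against 80.5 and 83.4 (-1.52 ± 0.36, adjusted p = 0.074).

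Death targets of p53 gave 0 calls among 12 tested in Mutant cells by the main test. In the GC slope fit 6 were higher and 2 lower (7.69% and 8.81% of all genes tested). Their median in Mutant cells was 0.28, and -0.062 without combination library 1, -0.041 without solvent library 2 and 0.44 without solvent library 1. In WT cells 2 were higher and 0 lower (1.30% and 0.929% of genes tested), with a median of 0.82. In Null cells 0 were called, with a median of 0.51. TNFRSF10B, a TRAIL receptor, stood at 102 and 76.9 scaled CPM in the combination, against 324 and 275 in solvent (-1.75 ± 0.47, limma adjusted p = 0.115), and BAX at 47.0 and 67.5, against 22.2 and 42.8 (0.86 ± 0.46, adjusted p = 0.5).

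Tested directly, the response of Mutant minus that of WT was below 0 for 8 genes and above 0 for 0 (0.0387% of genes tested), and with the GC slope 235 genes were called. CPA4, a carboxypeptidase, stood at 31.5 and 34.9 scaled CPM in the Mutant combination libraries, against 17.9 and 19.5 in Mutant solvent, and at 126 and 176 in the WT combination libraries, against 15.96 and 10.3 in WT solvent (difference of responses -2.67 ± 0.35, limma adjusted p = 0.00995). SULF2, a sulfatase that edits heparan sulfate, stood at 7.97 and 8.67 in the Mutant combination, against 8.53 and 9.24 in Mutant solvent, and at 65.2 and 67.01 in the WT combination, against 14.7 and 14.5 in WT solvent (-2.23 ± 0.30, adjusted p = 0.00995). CEACAM1, GGT6 and RIMS4 were the others among the 5 with the largest differences. With 1 of the 8 libraries left out, 0 to 9 genes were called, while the differences of the 8 genes kept their direction (CPA4 -2.98 to -2.37, SULF2 -2.29 to -2.17, CEACAM1 -3.40 to -2.65). The count was 0 without Mutant combination library 1 or 2, Mutant solvent library 1 or WT solvent library 2, 1 without Mutant solvent library 2 and 3 without WT combination library 2.

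The response of Mutant minus that of Null was called for 0 genes (456 with an unadjusted p under 0.05), and for 11 with the GC slope (0.0532%). CCN2 was the largest of these on the higher side, with a response of 1.55 in Mutant and -0.17 in Null (difference 1.71 with the GC slope, limma adjusted p = 0.0267). IFIT1 had a response of 1.5 in Mutant and 2.96 in Null (difference -1.46, adjusted p = 0.0476), and PLK2 1.11 in Mutant and 0.09 in Null (1.05, adjusted p = 0.0267). Levels in solvent also differed between the lines. Mean scaled CPM of CCN2 was 3.65 in Mutant and 25.7 in Null solvent, and 11.7 and 22.7 in the combination. For IFIT1 the means were 5.86 and 1.33 in solvent, and 17.5 and 13.7 in the combination. PLK2 had means of 24.7 and 86.4 in solvent, and 52.6 and 95.0 in the combination. Each of these 11 genes, IFIT1 included, lost its call in most fits that left out 1 library of the groups compared, which leaves that group with 1.

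The Mutant calls were looked up in the other lines, whose groups share no library with the Mutant groups. The tests shared 1 estimate of each gene's spread over all 24 libraries, so calls in different lines are not independent. Of the 54 genes that rose in Mutant, 16 also rose in WT (29.6% of the Mutant calls and 5.97% of the 268 WT calls) and 19 rose in Null (35.2% of the Mutant calls and 8.56% of the 222 Null calls). Of the 18 that fell, 11 fell in WT (61.1% and 5.73% of 192) and 9 in Null (50% and 4.97% of 181). Over all genes tested, 1.30% rose and 0.929% fell in WT, and 1.07% rose and 0.876% fell in Null. The sign was that of Mutant for 53 of 54 and 18 of 18 genes in WT and for 52 of 54 and 17 of 18 in Null. The share of same signs over all genes tested was not computed, so how far these counts exceed it was not tested. DDIT4 had -2.76 in Mutant, -3.07 in WT and -3.41 in Null, and PCNA 1.83 in Mutant, 1.62 in WT and 1.63 in Null. S100A14 had -2.50 in Mutant, beside -1.04 in WT (limma adjusted p = 0.225) and -1.18 in Null (0.139); the difference between lines was not called.

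**Figure D5:**
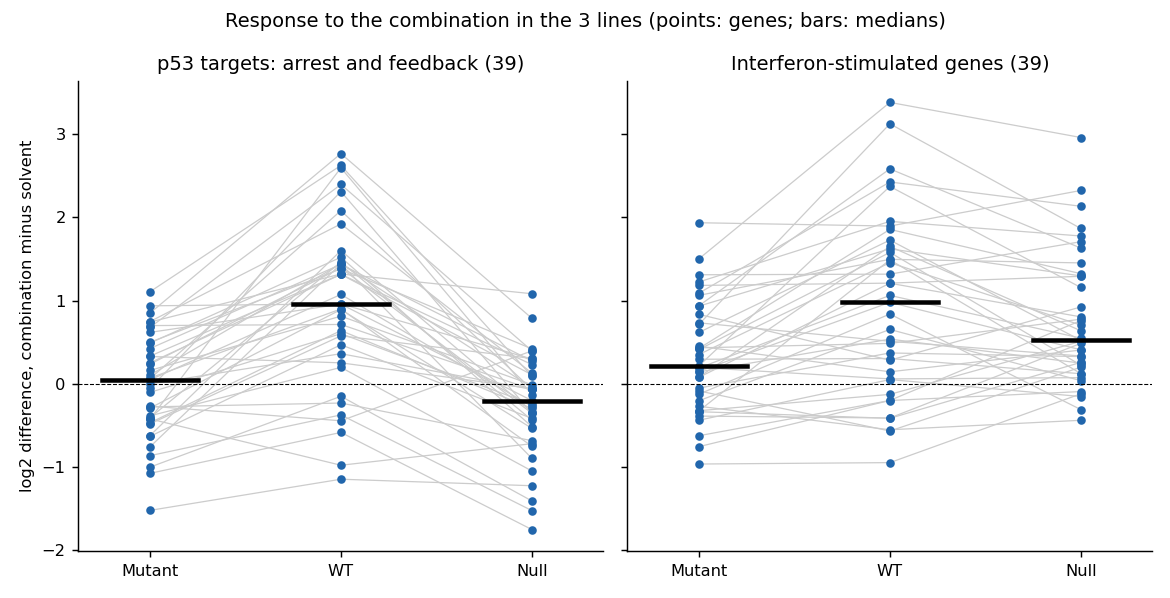
Log2 difference between combination and solvent in the Mutant, WT and Null lines for 39 p53 targets of arrest and feedback (left) and 39 interferon-stimulated genes (right); each point is a gene, grey lines join a gene between lines and bars are medians. The p53 medians were 0.049 in Mutant, 0.96 in WT and -0.20 in Null, and the interferon medians 0.22 in Mutant, 0.98 in WT and 0.52 in Null.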

How the data were processed

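Messenger RNA selected with oligo(dT) was read as 100-base pairs on a BGIseq500, per the labels' protocols. Per the submitters' processing notes FastQC, STAR and Subread with featureCounts were used, with build GRCh38.p13; versions, annotation and counting strand are not given in the sources used here. The deposited values are CPM of 60675 gene identifiers. All CPM (100%) came out as whole reads within 0.05 of a read, so counts of reads could be recovered from the deposited CPM; a count of 3 reads is 0.0517 to 0.0564 CPM (counting error only, and mates may have been counted singly). Symbols matched 42022 identifiers, and coordinates and GC content came from GENCODE 29.

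The test was limma-trend with robust variance (limma 3.58.1, edgeR 4.0.16, R 4.3.3) on log2(TMM-scaled CPM + 0.5), with 1 coefficient for each of 12 groups and 12 residual degrees of freedom. Genes were kept by filterByExpr at a count minimum of 10, and calls used a threshold of 0.05 on p after Benjamini-Hochberg adjustment. The unit was checked against the files and needed no other test. The GC slope was fitted over genes with a mean log2 of at least 2. edgeR and DESeq2 1.42.0 on the recovered counts, other scalings, pseudocounts of 0.1 and 2, no filter, a replicate block and leaving out libraries were alternatives. Scripts were run on simulated data, where a limit was enforced only on edgeR's effect sizes and not on the limma fits.

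Members, 31 gene lists and the rule for named genes were chosen with earlier results of these data known. Named are the 12 largest called rises and falls at 1 CPM or more, up to 4 members of each list by p, a fixed set (CDKN1A, MDM2, SLC7A11, GCLM, HMOX1, DDIT4, CHAC1, ASNS, CA2, IFIT1, EPCAM, KRT8, KRT18) and leading calls of the other comparisons; others are marked. Some members that the rule names are not reported here.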

Additional observations from a re-analysis of the deposited data

Results flagged for a closer look

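The response to the combination differed between the Mutant and WT lines, by limma's test of the difference of responses (Benjamini-Hochberg adjustment over all genes tested), for 8 genes. CEACAM1, an adhesion molecule, had a difference of -3.03 ± 0.44 (adjusted p = 0.0142), with 0.663 and 0.742 scaled CPM in the Mutant combination libraries, against 0.970 and 0.853 in Mutant solvent, and 4.08 and 7.22 in the WT combination libraries, against 0.567 and 0.188 in WT solvent. CPA4 had a difference of -2.67, with responses of 0.81 in Mutant and 3.49 in WT. GGT6, a gamma-glutamyltransferase family gene, had -2.23; it was listed at 0 in both Mutant combination libraries and at 1.36 and 2.42 scaled CPM in the WT combination libraries. SULF2 had -2.23, with responses of -0.09 in Mutant and 2.14 in WT. RIMS4 had -1.87; it was listed at 0 in both Mutant combination libraries and at 1.36 and 1.58 scaled CPM in the WT combination libraries. FRMPD2 had -1.56, SPATA18, a known p53 target of mitochondrial quality control, had -1.34, and LY6D had -1.32; these 3 were named after their values were seen, and each stayed under 0.1 scaled CPM in the Mutant libraries.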

How the results depend on the processing

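The 72 genes called for the combination against solvent in Mutant cells were selected in libraries that every alternative run reused. Kept direction was therefore no independent check: all 72 kept theirs under each run, while the count of these calls moved with the processing. That count was 163 without scaling, 38 with a pseudocount of 0.1, 3 with edgeR, 633 with DESeq2, 0 with only the Mutant libraries in the model, 3411 with the GC slope, and 0 to 4 with 1 library left out (with the GC slope 1348 and 1427 without combination library 1 and 2, 2744 and 367 without solvent library 1 and 2). Against APR-246 alone it was 1 without scaling, 20 without a filter on low counts, 7 with DESeq2, 76 with the GC slope, and 0 to 2 with 1 library left out (with the GC slope 6 without either combination library, 5 and 16 without APR-246 library 1 and 2). Without the filter it was 28 against irradiation, 5 for the departure from additivity and 9 for Mutant minus Null. Departure from additivity gave 0 to 3 with 1 library left out, with or without the GC slope. Mutant minus WT gave 2 with a pseudocount of 0.1, 14 with 2, 18 without the filter, 2 with edgeR, 23 with DESeq2, 0 with only those lines in the model, 235 with the GC slope, and 0 to 9 with 1 library left out (with the GC slope 88 and 105 without Mutant combination library 1 and 2, 155 and 63 without Mutant solvent library 1 and 2, 212 and 95 without WT combination library 1 and 2, 91 and 140 without WT solvent library 1 and 2). Mutant minus Null gave 11 with the GC slope and 0 to 1 with 1 library left out (in the GC slope fits 1 without Mutant solvent library 1, Null combination library 2 or Null solvent library 1, 11 without Null combination library 1 and 4 without Null solvent library 2). Fits that combine the GC slope with a left-out library were chosen after seeing the data. The cause of these shifts was not tested.

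With the replicate number as a block, calls against solvent numbered 1519, 790 higher and 729 lower (1073 with a block per line, 4068 with the GC slope and the block), against APR-246 2 (84 with the GC slope), in Mutant minus WT 36 (27 with a block per line, 201 with the GC slope) and in Mutant minus Null 22 with the GC slope and the block. The labels do not say what the number marks. Same-numbered libraries deviated together among the 4 Mutant groups (r 0.55 to 0.83), and in the opposite direction between Null APR-246 libraries and the other groups (r -0.56 to -0.14).

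Single genes whose sign turned were not called ones. MDM2 stood at 0.012 without scaling, 0.30 with the GC slope, 0.32 with the slope and block, 0.46 without combination library 2 and 0.60 without solvent library 1, against -0.70 without solvent library 2. GCLM stood at 0.015 without scaling, 0.040 with the slope and block, 0.029 without combination library 2 and 0.15 without solvent library 1, against -0.26 without solvent library 2. HMOX1 stood at -0.040 without solvent library 1 and at 1.56 without solvent library 2. EPCAM stood at 0.048 without scaling, 0.088 with the GC slope, 0.16 with the slope and block and 0.19 without solvent library 1, against -0.23 without solvent library 2. KRT8 stood at -0.023 with edgeR, -0.014 with DESeq2, -0.29 with the GC slope, -0.24 with the slope and block, -0.33 without combination library 2 and -0.73 without solvent library 1, against 1.03 without solvent library 2. KRT18 stood at 0.11 without combination library 1, 0.45 without solvent library 2 and -1.09 without solvent library 1.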

Other observations

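Several gene groups had medians near 0 in Mutant cells after the combination. Ribosome biogenesis genes had a median log2 difference of -0.020 over 32 tested with 0 called by limma, mitochondrially encoded mRNAs -0.012 over 13 with 0 called, and MHC class I genes -0.055 over 17 with 0 called. NF-kB targets and cytokines had a median of -0.094 over 27 with 0 called. In the GC slope fit 0 members of these groups were higher. Lower there were 3 ribosome biogenesis genes, 0 mitochondrially encoded mRNAs, 4 MHC class I genes and 3 NF-kB targets. Over all genes tested 7.69% were higher and 8.81% lower in that fit. With 1 library left out, the medians of these 4 groups lay between -0.22 (MHC class I without solvent library 1) and 0.28 (MHC class I without solvent library 2). Within them PLAU, the urokinase protease, stood at 52.2 and 67.7 scaled CPM in the combination, against 131 and 215 in solvent (adjusted p = 0.148), and LCN2, an iron-carrier binding protein, at 1.09 and 1.52, against 6.02 and 9.05 (adjusted p = 0.2).

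Ferroptosis regulators had a median of 0.16 over 22 tested with 0 called (0.32 without solvent library 1, 0.28 without combination library 1 or solvent library 2). In the GC slope fit 6 of them were higher and 1 lower (7.69% and 8.81% of all genes tested). TFRC, the transferrin receptor, stood at 192 and 133 scaled CPM in the combination, against 132 and 63.7 in solvent. Hypoxia and glycolysis genes had 0.43 over 30 with 0 called, and 0.094 without solvent library 1, 0.88 without solvent library 2 and 0.17 with the GC slope; ADM, a vasoactive peptide, stood at 43.7 and 47.7, against 13.4 and 22.7 (limma adjusted p = 0.123). BCL2 family genes had 0.17 over 15 with 0 called, and -0.026 and -0.046 without combination library 1 and 2, 0.032 without solvent library 1 and -0.094 with the GC slope; BCL2 stood at 1.92 and 2.54, against 1.05 and 0.683 (adjusted p = 0.249), and its antagonist HRK at 2.24 and 2.17, against 6.57 and 5.01 (adjusted p = 0.181).

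Keratins had a median of 0.15 over 15 tested with 0 called, and it was -0.52 without solvent library 1 and 0.45 without solvent library 2. In the GC slope fit their median was -0.25, with 0 higher and 4 lower (7.69% and 8.81% of all genes tested). The summed epithelial markers were 5318 and 9524 scaled CPM in the combination libraries and 4301 and 12340 in the solvent libraries, so the libraries of 1 group differed more than the groups. KRT8 was the largest part of each sum, at 2691 and 5245 in the combination and at 1841 and 6224 in solvent.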
